A study of Drosophila melanogaster with 4 samples.

Results

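The genes described here encode the sugar-splitting enzymes of glycolysis, with the dehydrogenases that draw on it to make glycerol phosphate and lactate. They were taken as the probe sets whose annotated symbol is Hex-A, Hex-C, Pgi, Pfk, Tpi, Gapdh1, Gapdh2, Eno, Gpdh1 or Ldh, a list of 10 genes. Of these, 8 genes had a probe set, 11 probe sets in all out of 18952 in the table, and all 11 passed the filter on dim probe sets. Gapdh2 and Ldh were not analysed here. Expression was measured with 1-colour Affymetrix arrays in whole third-instar larvae of Drosophila melanogaster that had been kept at 25 °C. The experimental larvae were C564-Gal4; UAS-Gyc76C and overexpressed Gyc76C, a transmembrane receptor guanylate cyclase that makes the second messenger cyclic GMP. The control larvae were C564-Gal4; UAS-GFP and expressed green fluorescent protein, so both genotypes carried the same driver and 1 UAS transgene. The labels place the overexpression in the fat body, the storage and immune organ of the larva, whereas RNA came from the whole body. C564-Gal4 is known as a fat body driver that is active in other tissues too, among them blood cells. There were 2 arrays of each genotype, which the labels call biological replicas, and neither the number of larvae behind an array nor their age within the instar was given.

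In glycolysis, hexokinases phosphorylate sugar on entry, Pgi and Pfk prepare it for splitting, and Tpi, Gapdh1 and Eno work on the 3-carbon products that end as pyruvate. Gpdh1 diverts one of these products, dihydroxyacetone phosphate, to glycerol 3-phosphate, which feeds triglyceride synthesis in fat body and a shuttle that carries reducing power into mitochondria in muscle. Growing fly larvae are known for high glycolytic activity together with glycerol phosphate and lactate production, a pattern that ends as metamorphosis approaches.

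The overexpressed gene matched the labels. Its brightest probe set, annotated to Gyc76C and to CG42637, had signals of 16050 and 20993 in Gyc76C larvae, against 1047 and 928 in GFP larvae. Across the 11261 probe sets tested, arrays of a genotype correlated at r = 0.968 for Gyc76C and r = 0.966 for GFP, and arrays of different genotypes at 0.88 to 0.91. By limma, 2771 probe sets passed an adjusted p of 0.05, which is 24.6% of those tested, with 1271 (11.3%) higher and 1500 (13.3%) lower in Gyc76C larvae; with each array centred on its median the split was 1663 higher and 991 lower. Over the tested probe sets the median log2 signal differed between genotypes by a shift of -0.16 (Gyc76C minus GFP), so centred values are given for the enzymes as well.

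Transcripts at the entry to glycolysis and at its glycerol phosphate branch were higher in Gyc76C larvae. Hex-C rose 4.33-fold, Hex-A 2.1-fold and Gpdh1 2-fold. Pgi and Pfk lay above both GFP arrays in both Gyc76C arrays without passing the threshold, and Tpi, Gapdh1 and Eno overlapped between genotypes. With each gene represented by its brightest probe set, 3 of the 8 were called higher and 0 lower, against 11.6% higher and 14% lower (25.7% in all) among the 9259 genes tested. This list and the lists described below were chosen with earlier results of these data known. Their counts beside those of all genes are therefore a description and not a test. Both Gyc76C arrays exceeded both GFP arrays in 5 of the 8, which was so for 26.7% of all genes tested. The same 3 against 0 was found after centring and after quantile normalization, and at an unadjusted p under 0.05 Pfk would be added to those called higher.

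**Figure D1:**
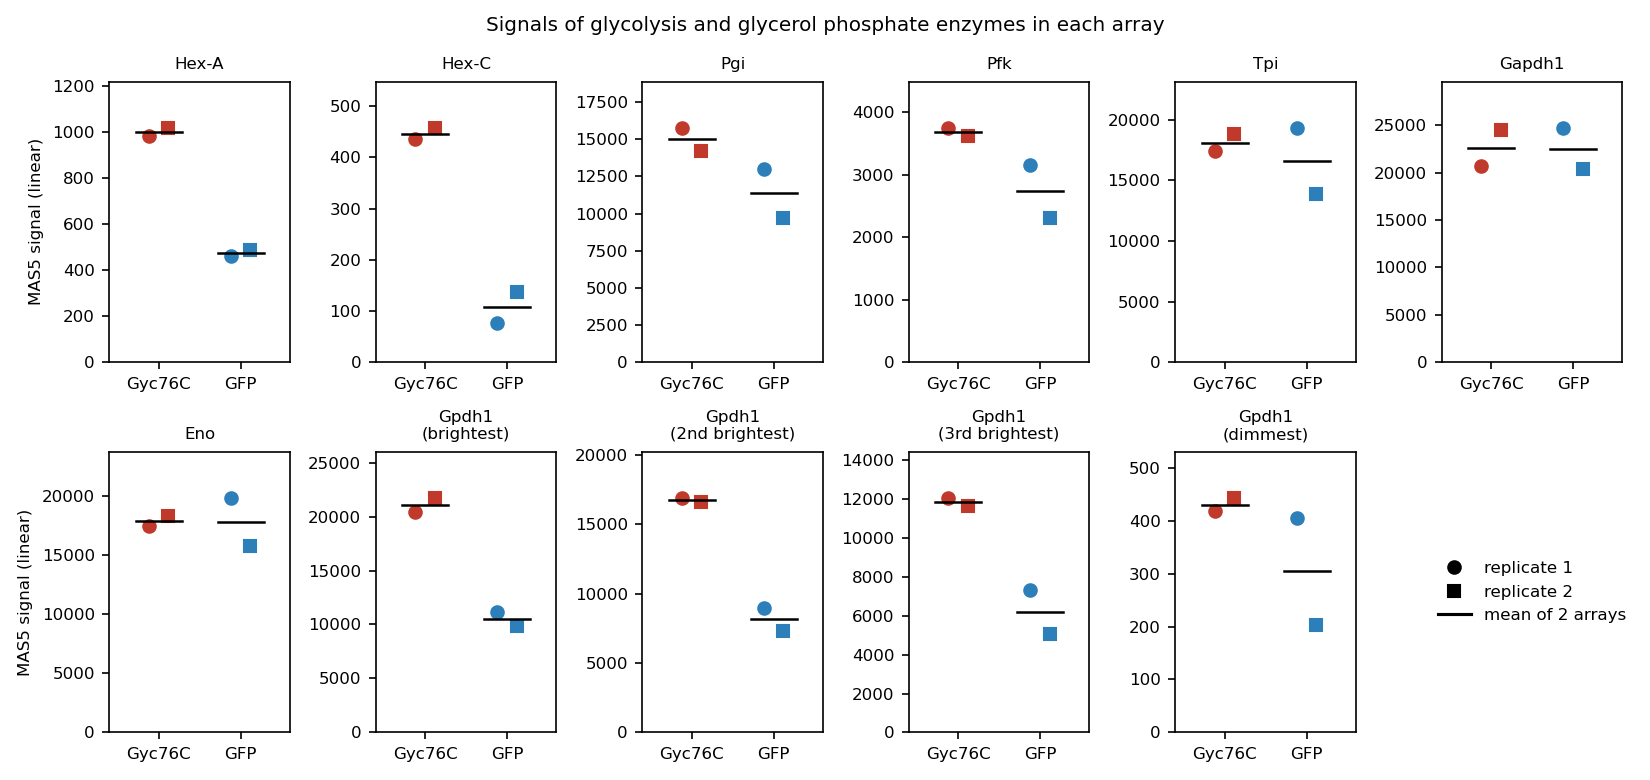
MAS5 signal (linear, each panel with its own axis starting at 0) of the 11 probe sets, with Gyc76C larvae left of GFP larvae, a point for each array and a line at the mean of 2 arrays. Both Gyc76C arrays lie above both GFP arrays for Hex-A, Hex-C, Pgi, Pfk and the 4 Gpdh1 probe sets, and the genotypes overlap for Tpi, Gapdh1 and Eno.

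The hexokinases catalyse the first step. Hex-A, the hexokinase found widely across fly tissues, had signals of 982 and 1015 in Gyc76C larvae, against 461 and 488 in GFP larvae. The arrays of each genotype lay close together and the genotypes were well apart, with means of 998 ± 23.7 in Gyc76C larvae and 474 ± 18.5 in GFP larvae (SD, n = 2 each). The log2 fold change was 1.07 (SE 0.14, 95% interval 0.74 to 1.41, limma adjusted p = 0.00363), or 1.23 with arrays centred on their median.

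Hex-C, a hexokinase known for its expression in fat body, had signals of 435 and 457 in Gyc76C larvae, against 77.1 and 138 in GFP larvae. The Gyc76C arrays were again close to each other, whereas the GFP arrays differed by 0.83 on the log2 scale. Means were 446 ± 15.4 in Gyc76C larvae and 107 ± 42.7 in GFP larvae. Its log2 fold change of 2.11 (SE 0.30, 95% interval 1.40 to 2.83, adjusted p = 0.00474) was the largest of the 8 genes, and 2.27 after centring. Leaving out either GFP array gave 1.70 or 2.53, both called. The difference in change between Hex-C and Hex-A was not tested, and their intervals just met.

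The pattern of Hex-C over the 4 arrays was set beside that of every other gene tested, as the root mean square difference of log2 signals after each gene was centred on its own mean. The nearest 5 were CG34267, CG10597, CG8736, prc and CG13461, with differences of 0.04, 0.06, 0.09, 0.10 and 0.18. Their log2 fold changes ran from 2.01 for CG10597 to 2.35 for CG13461. With 4 arrays of 2 genotypes such a likeness is a description and no more.

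Pgi and Pfk act between the hexokinases and the splitting step. Pgi, which converts glucose 6-phosphate to fructose 6-phosphate, had signals of 15733 and 14236 in Gyc76C larvae, against 12994 and 9731 in GFP larvae. Pfk, phosphofructokinase and a main control point of the pathway, had 3745 and 3621 in Gyc76C larvae, against 3164 and 2316 in GFP larvae. The genotypes did not overlap for either gene, but the distance between the GFP arrays (0.42 for Pgi and 0.45 for Pfk on the log2 scale) was about as wide as the difference between genotypes. The log2 fold change was 0.41 for Pgi (SE 0.18, 95% interval -0.01 to 0.83, adjusted p = 0.132), or 0.57 after centring. For Pfk it was 0.44 (SE 0.17, 95% interval 0.03 to 0.86, adjusted p = 0.106), or 0.60 after centring. Both calls turned on GFP replicate 1, since without that array the log2 fold change was 0.62 for Pgi (adjusted p = 0.0249) and 0.67 for Pfk (adjusted p = 0.00521), which gave 5 genes called higher instead of 3.

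Of the 8 genes, Tpi, Gapdh1 and Eno, which act after the splitting step, gave the smallest differences. Tpi, triose phosphate isomerase, had signals of 17447 and 18811 in Gyc76C larvae, against 19308 and 13846 in GFP larvae. Gapdh1, which oxidises glyceraldehyde 3-phosphate, had 20684 and 24537 in Gyc76C larvae, against 24671 and 20385 in GFP larvae. Eno, enolase, had 17504 and 18299 in Gyc76C larvae, against 19816 and 15822 in GFP larvae. In all 3 genes both Gyc76C signals lay between the GFP signals.

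The log2 fold change was 0.15 for Tpi (95% interval -0.30 to 0.60, adjusted p = 0.592), 0.01 for Gapdh1 (-0.40 to 0.41, adjusted p = 0.982) and 0.02 for Eno (-0.37 to 0.40, adjusted p = 0.954). These intervals leave room for differences of up to about 0.60 in Tpi and 0.40 in Eno on the log2 scale, so they do not show equal expression. Centring moved the 3 values to 0.31, 0.16 and 0.17. The sign of Eno turned after quantile normalization (-0.040), and the sign of all 3 turned without GFP replicate 2 (-0.092 for Tpi, -0.13 for Gapdh1 and -0.15 for Eno). Without Gyc76C replicate 2 the sign turned for Gapdh1 (-0.12) and Eno (-0.017). The probe sets of Pgi, Tpi, Gapdh1 and Eno were among the brightest on the arrays, at the 98.5th to 99.2nd percentile of mean signal. The brightest Gpdh1 probe set, which was called, stood at the 98.7th. The highest signal of an array was 36748 to 48176.

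**Figure D2:**
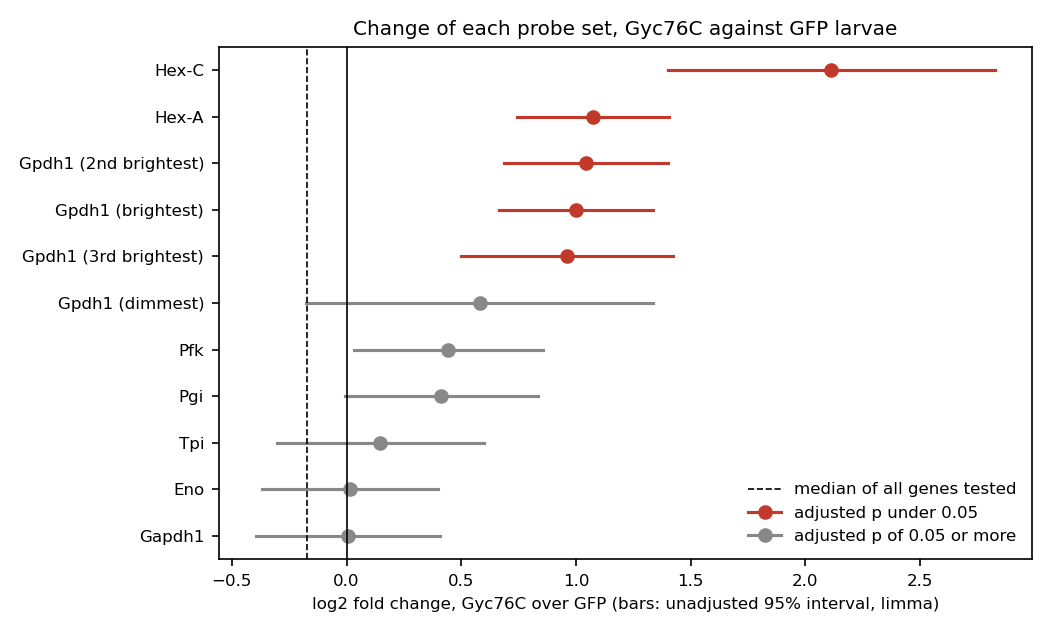
Log2 fold change of each probe set, Gyc76C over GFP larvae, with its unadjusted 95% interval from limma, red where the adjusted p was under 0.05. Hex-C stands at 2.11, Hex-A and 3 Gpdh1 probe sets between 0.96 and 1.07, and Eno and Gapdh1 next to 0; the dashed line is the median of all genes tested, -0.17.

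Gpdh1, the cytosolic glycerol 3-phosphate dehydrogenase, was measured by 4 probe sets, which share their gene and RNA and are not replicates of it. The brightest had signals of 20389 and 21676 in Gyc76C larvae, against 11200 and 9861 in GFP larvae. Both Gyc76C signals were thus well above both GFP signals, with means of 21032 ± 910 in Gyc76C larvae and 10530 ± 947 in GFP larvae (SD, n = 2 each). The log2 fold change was 1.00 (SE 0.14, 95% interval 0.66 to 1.34, adjusted p = 0.0047), or 1.16 after centring.

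The second in brightness read 16842 and 16578 in Gyc76C larvae, against 8954 and 7329 in GFP larvae, a log2 fold change of 1.04 (SE 0.15, adjusted p = 0.00496). The third in brightness read 12032 and 11665 in Gyc76C larvae, against 7343 and 5051 in GFP larvae (log2 fold change 0.96, SE 0.19, adjusted p = 0.0155), and its call ended without Gyc76C replicate 1 (adjusted p = 0.0506) and without a variance trend (0.0729). These 2 and the brightest gave nearly the same size of rise. The dimmest read 418 and 442 in Gyc76C larvae, against 406 and 204 in GFP larvae. Its log2 fold change of 0.58 (SE 0.32, adjusted p = 0.22) was not called, and 1 GFP array was nearly as high as the Gyc76C arrays. Its value was 1.08 with GFP replicate 1 left out (adjusted p = 0.00441) and 0.08 with the other GFP array left out (0.771). The sources used here do not say where the probe sets lie in the transcripts.

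The array also carries control probe sets named GAPDH, which were left out of the main test, and 3 of the 4 in one naming series were called higher, as Gpdh1 was, when the controls were added to the fit. The RefSeq gene table lists GAPDH among the synonyms of Gpdh1 as well as of Gapdh1. AFFX-r2-Dros-GAPDH-3_a_at had signals of 19468 and 21318 in Gyc76C larvae, against 10952 and 9842 in GFP larvae, which stayed within 95.5% to 99.8% of the brightest Gpdh1 probe set on each array. AFFX-r2-Dros-GAPDH-3_at had 11866 and 11480 in Gyc76C larvae, against 7604 and 5207 in GFP larvae, or 98.4% to 104% of the third Gpdh1 probe set. AFFX-r2-Dros-GAPDH-M_a_at had 15180 and 16455 in Gyc76C larvae, against 7310 and 5979 in GFP larvae, or 81.6% to 99.3% of the second Gpdh1 probe set. These 3 controls were 1.85-fold to 2.39-fold higher in Gyc76C larvae, beside 2-fold for the brightest Gpdh1 probe set. The dim AFFX-r2-Dros-GAPDH-5_a_at had 600 and 721 in Gyc76C larvae, against 567 and 577 in GFP larvae, and was not called (log2 fold change 0.20, adjusted p = 0.378). It was 140% to 283% of the dimmest Gpdh1 probe set, the nearest among those of Gpdh1 and Gapdh1.

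None of the 3 controls in the other naming series was called. AFFX-Dros-GAPDH_3_at had signals of 20156 and 22126 in Gyc76C larvae, against 22970 and 19366 in GFP larvae, which is 90.2% to 97.4% of Gapdh1 on each array. The genotypes overlapped in it, as they did in AFFX-Dros-GAPDH_5_at and AFFX-Dros-GAPDH_M_at. Controls were compared with the Gapdh1 and Gpdh1 probe sets only, and AFFX-Dros-GAPDH_M_at and AFFX-Dros-GAPDH_5_at lay further from these. AFFX-Dros-GAPDH_M_at was 71.5% to 94.3% of Gapdh1. Its signals of 19512 and 18443 in Gyc76C larvae, against 19801 and 14567 in GFP larvae, were near those of Tpi (17447 and 18811, against 19308 and 13846). Likeness of signal therefore does not identify a transcript here. Among the probe sets compared, AFFX-Dros-GAPDH_5_at was nearest to the second of Gpdh1, at 72.3% to 141% of it. Added to the fit after their values were seen, AFFX-Dros-GAPDH_3_at had a log2 fold change of 0.00 (SE 0.15, adjusted p = 0.994), whereas AFFX-r2-Dros-GAPDH-3_a_at had 0.97 (SE 0.14, adjusted p = 0.00514). The probe sequences were not used here, so which transcript each control detects was not tested.

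**Figure D3:**
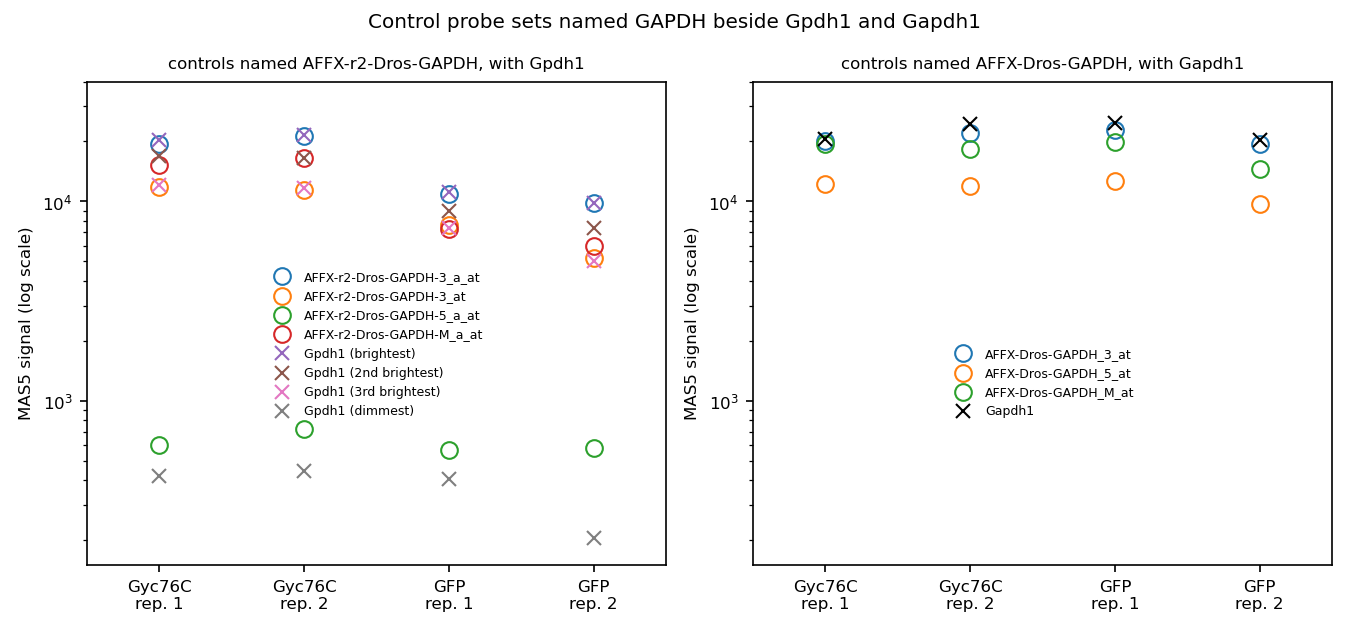
MAS5 signal on a log axis in each array, Gyc76C arrays left of GFP arrays, for control probe sets named GAPDH (circles) beside Gpdh1 and Gapdh1 probe sets (crosses). AFFX-r2-Dros-GAPDH-3_a_at and AFFX-r2-Dros-GAPDH-3_at lie on Gpdh1 crosses and are higher in Gyc76C larvae; AFFX-Dros-GAPDH_3_at lies next to Gapdh1, at 20156 and 22126 in Gyc76C larvae and 22970 and 19366 in GFP larvae.

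Much of the uncertainty in these genes came from the GFP arrays. The GFP replicate 2 signal was below that of GFP replicate 1 for 9 of the 11 probe sets, by a median log2 difference of -0.32, whereas among all probe sets tested 50.4% were lower on that array and the median difference was 0.00. Hex-A and Hex-C were the exceptions. Between the Gyc76C arrays the median difference of the 11 probe sets was 0.06. Markers of muscle, a tissue rich in glycolytic enzymes, differed between the GFP arrays in the same direction, with 11 of 11 lower in GFP replicate 2 and a median of -0.34.

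**Figure D4:**
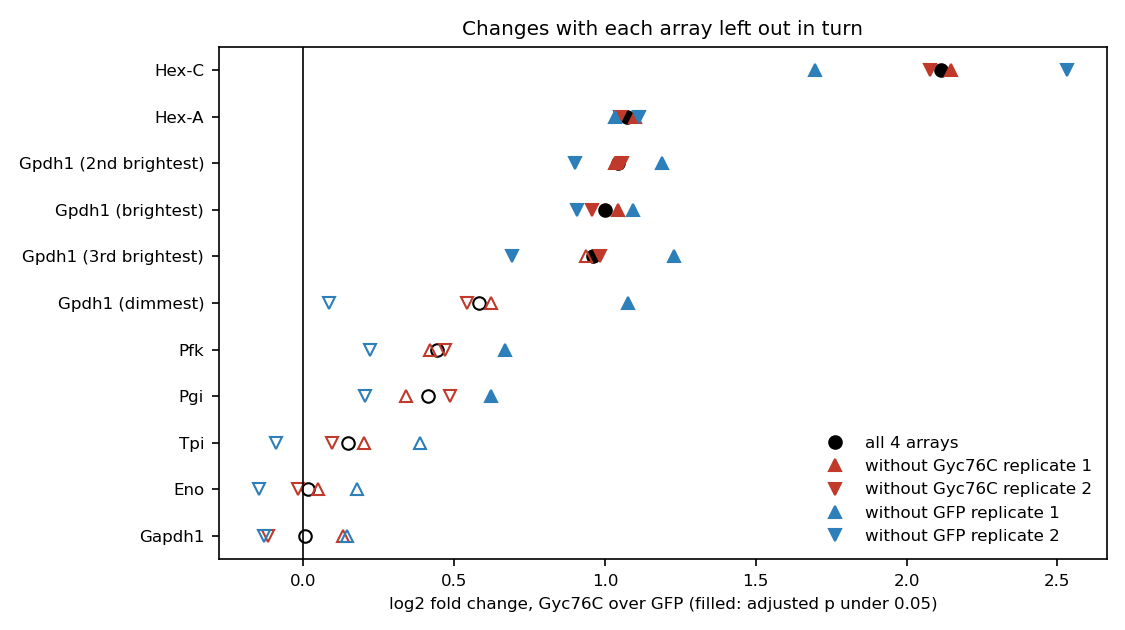
Log2 fold change of each probe set, Gyc76C over GFP larvae, with all 4 arrays and with each array left out, filled where the adjusted p was under 0.05. Leaving out a GFP array (blue) moves most probe sets further than leaving out a Gyc76C array (red); Pgi, Pfk and the dimmest Gpdh1 probe set are filled only without GFP replicate 1, at 0.62, 0.67 and 1.08.

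Muscle markers also differed between genotypes. Of 11 tested, 5 rose and 0 fell, beside 11.6% called higher and 14% lower among all genes tested. The median of the 11 was 0.75 on the log2 scale. Their summed signal was 152362 to 175145 in Gyc76C larvae and 95830 to 126183 in GFP larvae. Among the 6 not called, TpnC41C had -1.17, Mlc1 0.07 and TpnC73F 0.18, whereas up, Mf and Act87E had 0.47, 0.68 and 0.75. The titin-like genes sls and bt rose by 1.93 and 1.11 on the log2 scale and the myosin light chain gene Mlc2 by 1.71, while the paramyosin gene Prm rose by 0.81, a call that ended without Gyc76C replicate 2 (adjusted p = 0.098) and without GFP replicate 2 (0.0941). With arrays centred 8 muscle markers rose, and without a variance trend 2 did. In whole larvae fewer cells of a type and less RNA per cell cannot be told apart. The part of muscle in the enzyme changes was not tested.

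Markers of other tissues gave the following picture, beside 11.6% called higher and 14% lower among all genes tested. Age within the instar was not given, so in these markers a difference in stage and one in amount of tissue cannot be told apart. All 10 salivary gland glue genes tested fell, with log2 fold changes of -6.56 for Sgs3, -5.72 for Sgs1, -5.71 for Sgs5 and -5.56 for ng3, and summed signals of 23212 to 29974 in Gyc76C larvae and 209526 to 223865 in GFP larvae. Of 4 fat body markers 2 fell, Fbp1 by 1.55 and Fbp2 by 0.48, with sums of 88849 to 105332 in Gyc76C larvae and 132734 to 135658 in GFP larvae; the Fbp2 call ended without any 1 of the 4 arrays (adjusted p = 0.0609 to 0.135). The other fat body markers, Lsp2 and apolpp, had -0.37 and 0.41 and were not called. Of 6 midgut markers 3 rose, Mal-A1 by 1.97, betaTry by 1.85 and epsilonTry by 0.78. The epsilonTry call ended without a variance trend (adjusted p = 0.0727), and its value was 0.67 without Gyc76C replicate 2. Among the rest alphaTry had 0.16, Jon25Biii -0.19 and Jon65Aiv -0.29, none of them called. Midgut sums were 91858 to 106596 in Gyc76C larvae and 82186 to 91109 in GFP larvae.

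Of 8 blood cell markers 2 rose and 3 fell, among them PPO2 with a log2 fold change of 0.76 and He, eater and srp with -0.99, -0.85 and -0.81, and without Gyc76C replicate 1 there were 0 higher and 1 lower. Their sums were 18289 to 18949 in Gyc76C larvae and 12376 to 15775 in GFP larvae. The neuron markers elav and brp were not called (-0.68 and -0.20), with sums of 144 to 158 in Gyc76C larvae and 213 to 229 in GFP larvae. Of 5 testis markers 1 fell, Mst84Da by 1.47, with sums of 388 to 701 in Gyc76C larvae and 891 to 1254 in GFP larvae, and its call ended without Gyc76C replicate 1 (adjusted p = 0.0839) and without GFP replicate 1 (0.0538). The part of these tissues, or of stage, in the enzyme changes was not tested.

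Of 4 other glycolytic genes tested, Pgk, phosphoglycerate kinase, was called higher, with signals of 7358 and 7161 in Gyc76C larvae against 5295 and 4254 in GFP larvae (log2 fold change 0.61, SE 0.15, adjusted p = 0.0285). That call was lost on leaving out Gyc76C replicate 1 (adjusted p = 0.135) or Gyc76C replicate 2 (0.0859) and without a variance trend (0.0991). The aldolase gene Ald1 had 0.37 by its brightest probe set and -0.18 by another, neither called, so its probe sets disagreed in sign, and the brightest was called after centring (0.53, adjusted p = 0.0402). The phosphoglycerate mutase gene Pglym78 had 0.26. Pfrx, which makes and removes the activator of Pfk, had -0.084, and 0.073 after centring. The median of the 4 genes was 0.32, against -0.17 over all genes tested.

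Paralogs of these enzymes that the list assigns to testis were dim. All 7 tested had a log2 fold change under 0, with a median of -0.60 beside -0.17 over all genes tested. Of these 7, 1 fell, the hexokinase gene Hex-t2, beside 14% called lower among all genes tested. Hex-t2 had signals of 59.2 and 81.6 in Gyc76C larvae against 178 and 149 in GFP larvae (log2 fold change -1.23, adjusted p = 0.0328). Its call ended without Gyc76C replicate 1 (adjusted p = 0.112) and without either GFP array (0.125 and 0.0695). So Hex-A and Hex-C rose, whereas Hex-t2, with signals near the filter level, fell.

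Around Gpdh1, the enzymes that make glycerol 3-phosphate from glycerol were higher as well. Gk2, a glycerol kinase, had signals of 2217 and 1785 in Gyc76C larvae against 887 and 667 in GFP larvae (log2 fold change 1.37, SE 0.19, adjusted p = 0.0045). Gk1, another glycerol kinase, had 1259 and 1213 in Gyc76C larvae against 866 and 788 in GFP larvae (log2 fold change 0.58, adjusted p = 0.0245), a call that ended without either Gyc76C array (0.2 and 0.129). The mitochondrial glycerol phosphate oxidase genes tested, Gpo2 and Gpo3, were dim at 0.29 and -0.26. A second, dimmer Gpo3 probe set had -1.06 (adjusted p = 0.232), with both Gyc76C signals under the filter level of 46.3. Taken against that level, its GFP signal was 1.38-fold higher. Only 6 of the 7 genes listed had a probe set, so these dim genes do not describe the oxidase step as a whole. The Gpdh1 paralogs Gpdh2 and Gpdh3 had -0.97 and 0.08. None of Gpo2, Gpo3, Gpdh2 and Gpdh3 was called, and Gpdh2 stood at -1.74 without Gyc76C replicate 2. In this list 2 of the 6 genes tested rose, beside 11.6% called higher among all genes tested.

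Of 5 genes of gluconeogenesis, which runs against glycolysis, 1 rose and 1 fell, beside 11.6% called higher and 14% lower among all genes tested. The fructose bisphosphatase gene fbp, whose product reverses the Pfk step, had signals of 4701 and 4510 in Gyc76C larvae against 2458 and 1772 in GFP larvae (log2 fold change 1.14, SE 0.18, adjusted p = 0.00648). Under every alternative tried fbp was called. Pepck2, a phosphoenolpyruvate carboxykinase, had 3281 and 2602 in Gyc76C larvae against 4191 and 4946 in GFP larvae (log2 fold change -0.64, adjusted p = 0.0339). The Pepck2 call was lost on leaving out either Gyc76C array (0.0555 and 0.178), without GFP replicate 2 (0.0526) and after centring (0.0806). Pepck1 had 0.67, the pyruvate carboxylase gene PCB 0.48 and the glucose 6-phosphatase gene G6P -1.26, none of them called. Without GFP replicate 1 the number that rose was 3, and with centred arrays 2 rose and 0 fell.

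The pentose phosphate pathway leaves glycolysis at glucose 6-phosphate and supplies NADPH and ribose. The genes with a probe set were CG8036, Rpi, Pgls, Taldo and Rpe, 5 of the 7 listed, and NADPH supply was not tested. Of 5 genes tested 4 rose and 0 fell, against the 11.6% of all genes that were higher, and the median log2 fold change was 0.53. CG8036 had signals of 14696 and 15137 in Gyc76C larvae against 4718 and 5499 in GFP larvae (log2 fold change 1.55, SE 0.14, adjusted p = 0.00105). Rpi, ribose phosphate isomerase, rose by 1.05, Pgls, phosphogluconolactonase, by 0.53 and Taldo, transaldolase, by 0.47. Without either Gyc76C array, or without a variance trend, 2 genes rose.

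**Figure D5:**
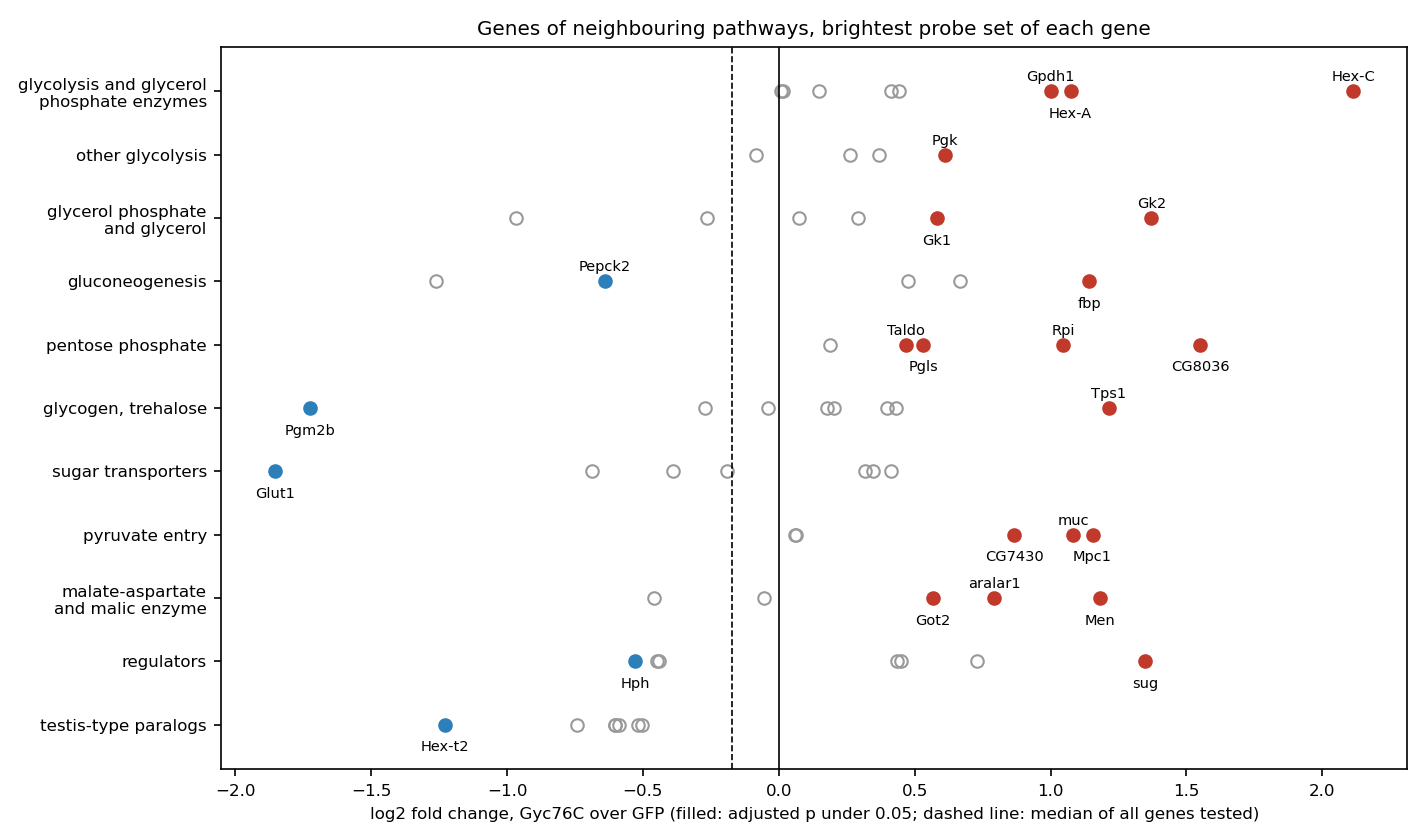
Log2 fold change, Gyc76C over GFP larvae, of the genes described here and of 10 lists of neighbouring genes, 1 point for each gene by its brightest probe set, filled red where called higher and blue where called lower. Pentose phosphate and pyruvate entry genes lie at or right of 0, and testis-type paralogs left of it.

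Most of the tested genes that bring pyruvate into mitochondrial metabolism were higher. Mpc1, a subunit of the mitochondrial pyruvate carrier, had signals of 4813 and 4533 in Gyc76C larvae against 2142 and 2054 in GFP larvae (log2 fold change 1.15, SE 0.12, adjusted p = 0.00188). For muc, which encodes the E2 subunit of pyruvate dehydrogenase, the log2 fold change was 1.08 and for CG7430 it was 0.87, and all 3 were called under every alternative tried. The kinase and phosphatase genes that switch pyruvate dehydrogenase, Pdk and Pdp, had 0.06 each and were not called. Of 5 genes 3 rose, beside 11.6% called higher among all genes tested, and the median was 0.87.

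A list of malic enzyme and of shuttles that carry reducing power and amino groups between cytosol and mitochondrion also held called genes. Over all genes tested 11.6% were called higher and 14% lower. Of 5 tested 3 rose, namely the malic enzyme gene Men by 1.18, the carrier gene aralar1 by 0.79 and the aspartate aminotransferase gene Got2 by 0.57, and without Gyc76C replicate 1 only Men was called. The Got2 call was lost under 6 of 12 alternatives, among them without Gyc76C replicate 2 (adjusted p = 0.0847) and without GFP replicate 2 (0.0926). Mdh1 and Got1 of the same list had log2 fold changes of -0.05 and -0.46 and were not called. Both Gyc76C arrays of Got1 lay below both GFP arrays. In glycogen and trehalose metabolism 1 of 8 rose and 1 fell, near the shares over all genes tested. Tps1, which makes trehalose, the blood sugar of flies, had signals of 3502 and 3856 in Gyc76C larvae against 1772 and 1416 in GFP larvae (log2 fold change 1.21, SE 0.15, adjusted p = 0.00338). Pgm2b was at least 2.04-fold lower, with both Gyc76C signals under the filter level of 46.3, and its call ended without any 1 of the 4 arrays (adjusted p = 0.0537 to 0.179). Without GFP replicate 1, 4 of these 8 genes rose, and 3 did with centred arrays.

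Of 7 sugar transporter genes 0 rose and 1 fell, beside 11.6% called higher and 14% lower among all genes tested. With centred arrays 1 rose, as with the filter at the 60th percentile, and without a variance trend 0 fell. Glut1 had signals of 121 and 88.6 in Gyc76C larvae against 236 and 595 in GFP larvae (log2 fold change -1.85, SE 0.43, adjusted p = 0.025), a call that ended without GFP replicate 2 (0.0504), and 2 dimmer Glut1 probe sets that were not tested had higher signals in Gyc76C larvae. Among 7 regulators, sug, a transcription factor induced by dietary sugar, rose to 1576 and 1272 in Gyc76C larvae against 630 and 491 in GFP larvae (log2 fold change 1.35, SE 0.18, adjusted p = 0.00438). Hph, the prolyl hydroxylase of the hypoxia pathway, fell by 0.53, and its call was lost on leaving out either Gyc76C array (0.209 and 0.166) and after centring (0.0963), while a second, dimmer Hph probe set had 0.08 (adjusted p = 0.835). Of the 7 regulators 1 rose and 1 fell, near the shares over all genes tested. Their median was 0.44, beside -0.17 over all genes tested. These counts changed with the array left out, and with the mean of a gene's probe sets 0 fell.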

How the data were processed

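Total RNA of whole larvae was labelled as biotinylated cRNA and hybridized to 1-colour Affymetrix arrays, per the labels' protocols. Each deposited value is a linear intensity of a probe set; MAS5 is named in the submitters' processing notes, and no version or genome build is given in the sources used here. The 2% trimmed mean was 500 on every array, so values had been scaled to it before deposit. MAS5 gives a signal also where nothing is detected, and detection calls were not used, so changes of dim probe sets are uncertain.

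Of 18952 probe sets, 183 controls were left out. The platform annotation gave 13647 of the others 1 symbol, 402 several and 4720 none, and genes were named only from probe sets with 1 symbol. Probe sets with a mean signal at or above the 40th percentile (46.3) were kept. Log2 signals, with no pseudocount, were compared by limma (version 3.58.1, R 4.3.3; lmFit, eBayes with a mean trend), two-sided, with Benjamini-Hochberg adjustment over 11261 probe sets and a threshold of 0.05. There were 2 residual and 4.64 prior degrees of freedom. The fit was checked on simulated data. Each gene stands by its brightest probe set. Folds are ratios of geometric means; means ± SD are arithmetic. A fold against a genotype with no array at or over 46.3 is taken against that level. P-values rest on the spread between these arrays, and for each probe set much of the variance estimate came from the other probe sets.

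The 10 genes and the gene lists were chosen with earlier results of these data known, so they are described by counts and medians. All genes of the lists of other glycolysis, glycerol phosphate, gluconeogenesis and pyruvate entry are named where tested, and of each other list up to 4 called genes with the largest changes, or the 2 brightest where none was called. Alternatives were median centring, quantile normalization, other filters, a floor for dim signals, no or robust variance trend, a replicate block, the mean of a gene's probe sets and leaving out each array.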

Additional observations from a re-analysis of the deposited data

Results flagged for a closer look

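Control probe sets outside the main test were higher in Gyc76C larvae. On both Gyc76C arrays the 4 probe sets of the AFFX-r2-Dros-GAPDH series exceeded both GFP arrays. The fold of Gyc76C over GFP larvae was 2.39 for AFFX-r2-Dros-GAPDH-M_a_at, 1.96 for AFFX-r2-Dros-GAPDH-3_a_at and 1.85 for AFFX-r2-Dros-GAPDH-3_at. It was 1.15 for AFFX-r2-Dros-GAPDH-5_a_at, which read 600 and 721 in Gyc76C larvae against 567 and 577 in GFP larvae (log2 fold change 0.20, SE 0.16, adjusted p = 0.378 when added to the fit). By comparison, the fold was 1.00 for AFFX-Dros-GAPDH_3_at, 1.12 for AFFX-Dros-GAPDH_M_at and 1.10 for AFFX-Dros-GAPDH_5_at, all with overlapping genotypes.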

How the results depend on the processing

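Hex-A, Hex-C and the brightest Gpdh1 probe set kept direction and call under all 12 alternatives of the fit, with ranges of 1.03 to 1.23, 1.70 to 2.53 and 0.91 to 1.16 in log2 fold change. With an array left out, 3 to 5 of the genes described were called higher, and log2 fold changes ran from 0.20 to 0.62 for Pgi, 0.22 to 0.67 for Pfk, -0.092 to 0.39 for Tpi, -0.13 to 0.14 for Gapdh1 and -0.15 to 0.18 for Eno. Eno was -0.040 after quantile normalization. Other filters, the floor, the variance settings and the replicate block leave the log2 fold changes of these genes as they are, so there only calls could move. Without a variance trend the limma adjusted p was 0.0354 for Hex-A, 0.0385 for Hex-C and 0.0414 for the brightest Gpdh1 probe set. Over all probe sets 575 to 1588 were called higher and 629 to 1762 lower with an array left out, 612 higher and 629 lower without a variance trend, and 991 lower with centred arrays. Leaving out an array gave -0.93 to 0.41 for Gpo3, -0.14 to 0.29 for Gpdh3, -0.083 to 0.21 for Pdk, -0.0013 to 0.13 for Pdp and -0.60 to 0.20 for brp. Pfrx was 0.073 with centred arrays and 0.0091 after quantile normalization, and brp was 0.045 after quantile normalization. The causes were not tested.

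Of 21 called genes in the 10 pathway lists, 10 were called under every alternative that gave a value, 10 lost the call without Gyc76C replicate 1 and 9 without a variance trend. Deviations of same-numbered arrays correlated at r = 0.04, and nothing in the labels says that numbers pair the samples. With the replicate number as a block, 1370 probe sets were called higher and 1731 lower, and 3 of the genes described higher, as without it. With 2 arrays per genotype, small differences are not detectable.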
